A study of Mus musculus with 3 samples.

Results

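The genes described here encode chaperones and protein folding factors, measured in area CA1 of the mouse hippocampus 6 h after contextual fear conditioning. They were chosen by name: probe sets annotated to a single gene whose symbol belongs to the HSP70, small heat shock, HSP60 and HSP10, HSP110, HSP90, DNAJ, TRiC, disulfide isomerase, cyclophilin or BAG families, plus Calr, Canx, Stip1, Xbp1, Ddit3, Hsf2 and P4hb. This gave 112 probe sets for 77 genes, of 10833 single-gene probe sets for 8251 genes on the array. By location, 41 genes were cytosolic, 16 belonged to the endoplasmic reticulum (ER), 7 to the mitochondrion, 3 were transcription factors and 10 were nuclear or of other or unsure location. No single-gene probe set was annotated to Hsp90ab1 or Hsf1, which were not analysed here. Another 4 probe sets named Ppia, Ppih or Dnajc19 together with a second gene and were not used.

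The samples are 3 arrays in 1 group, from young male mice of the inbred strain C57BL/6J. Each animal explored an unfamiliar context for 2 min and then received a foot shock of 1 s at 0.5 mA, a cycle given 3 times, and went back to its home cage 1 min after the last shock. Whether RNA of 1 animal or of several went onto an array is not stated, so p-values measure only the spread between these arrays, which can be technical. No untrained animals belong to the samples used here, so no level can be read as a response to training, and in tissue RNA a change in the number of cells of a type and a change in RNA per cell cannot be told apart.

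Signals are the deposited intensities in arbitrary units, given as values on arrays 1, 2 and 3 or as mean ± SD (n = 3 arrays). Fold ranges, log2 ranges, shifts and the highest and lowest array were taken after rescaling and flooring, so they can differ from the printed signals. Dnaja2, for example, was highest on array 1 as deposited and on array 3 after rescaling. A probe set was called above threshold when its mean exceeded 175, the midpoint of the deposited values. Transcripts under threshold may still be present, and probe sets differ in efficiency, so signals are compared between arrays and not between genes. The array medians were 176, 177 and 171. All 4 CA1 pyramidal markers were above threshold, with Wfs1 at 2522 ± 66.0, as were all markers with a probe set for astrocytes (3), oligodendrocytes (3) and microglia (4). Of 4 choroid plexus markers 3 passed, and their leading gene Ttr gave 1334, 4257 and 94.2. Of 3 endothelial, 3 blood and 3 dentate granule markers 1, 1 and 2 passed, and the granule cell gene Prox1 gave 28.4 ± 18.7. Array 2 differed in the ratio of 3' to 5' signal, a common check on labelled RNA, which was 1.21 for Gapdh and 1.86 for Actb, against 3.99 and 2.57 on array 1 and 3.94 and 3.50 on array 3.

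Molecular chaperones hold unfolded chains and use cycles of ATP binding to release them for folding. HSP70 proteins are driven by J-domain proteins, which deliver clients and stimulate ATP hydrolysis, and by BAG and HSP110 proteins, which exchange the nucleotide. HSP90 and the TRiC chaperonin ring finish selected clients such as kinases, actin and tubulin. The ER has its own HSP70 and HSP90, with lectin chaperones and disulfide isomerases for secreted and membrane proteins, and the mitochondrion uses its own HSP70 and the HSP60 and HSP10 chaperonin. Cytosolic folding stress acts through heat shock factors on heat shock elements, whereas ER stress acts through ATF6 and XBP1 on ER stress elements. Neurons depend on these systems for synaptic protein turnover over long axons and dendrites.

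Promoter sequences that hold such elements are shown because the ER stress element was found in ER members and the 3-unit heat shock element in cytosolic and mitochondrial ones. RefSeq promoter windows on build GRCm38.p6, from 250 bases before to 50 after the gene start, were matched for 66 of the 77 genes. The heat shock element of 3 units was searched as GAA, TTC and GAA with 2 free bases between units, and the ER stress element as CCAAT and CCACG with 9 free bases between them, on both strands. The 3-unit heat shock element was found in the windows of 4 members, Hspd1, Hspe1, Dnajb6 and Hsph1, against 0.662% of 27025 genes with a window. Hspd1 and Hspe1, which encode the mitochondrial chaperonin and its lid, lie head to head on chromosome 1, their windows overlap by 285 bases, and the same 18 bases hold the element in both. Capitals below mark matches, which overlap each other in the chaperonin pair.
Hspd1 (chr1:55088029-55088106, minus strand): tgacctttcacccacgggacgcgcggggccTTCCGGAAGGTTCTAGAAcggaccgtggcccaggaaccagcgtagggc
Hspe1 (chr1:55088029-55088106, plus strand): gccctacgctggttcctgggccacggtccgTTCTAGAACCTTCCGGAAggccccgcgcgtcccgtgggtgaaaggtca
Dnajb6 (chr5:29735822-29735894, plus strand): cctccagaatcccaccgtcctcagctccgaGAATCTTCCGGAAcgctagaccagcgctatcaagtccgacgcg
In Hsph1 the match began 16 or 37 bases after the start, depending on the start used, and is not printed.

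The ER stress element was found in 6 of the 15 ER members with a window, 0 of 34 cytosolic and 0 of 5 mitochondrial members, against 0.137% of all genes with a window. Hsp90b1 held 2 copies in opposite orientations. A second form, ATTGG and CCACG with 1 free base between them, was found in Dnajb11 alone among the members, 8 bases after its start, against 0.0444% of all genes. These 6 windows are shown with the element in capitals, in whichever orientation it lies.
Hspa5 (chr2:34771940-34772089, plus strand): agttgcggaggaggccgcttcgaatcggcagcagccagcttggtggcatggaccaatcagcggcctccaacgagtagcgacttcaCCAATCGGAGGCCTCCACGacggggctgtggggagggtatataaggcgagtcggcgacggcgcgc
Hsp90b1 (chr10:86705503-86705686, minus strand): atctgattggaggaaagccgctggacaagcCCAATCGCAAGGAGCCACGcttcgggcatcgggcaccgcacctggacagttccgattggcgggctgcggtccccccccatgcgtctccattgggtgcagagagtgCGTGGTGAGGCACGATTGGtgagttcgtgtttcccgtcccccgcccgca
Calr (chr8:84847045-84847123, minus strand): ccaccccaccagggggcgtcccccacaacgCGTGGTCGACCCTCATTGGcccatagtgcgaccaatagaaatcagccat
Canx (chr11:50325770-50325848, minus strand): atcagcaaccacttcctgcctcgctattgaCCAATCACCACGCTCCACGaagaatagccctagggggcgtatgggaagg
Pdia6 (chr12:17266461-17266539, plus strand): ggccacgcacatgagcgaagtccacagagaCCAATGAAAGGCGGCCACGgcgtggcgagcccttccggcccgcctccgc
Dnajc3 (chr14:118937797-118937875, plus strand): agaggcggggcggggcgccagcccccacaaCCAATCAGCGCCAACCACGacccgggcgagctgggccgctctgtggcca
A match is a stretch of letters and shows neither binding nor regulation in these samples.

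Most members were above threshold. Of the 112 probe sets 80 passed, or 71.4%, and the share of all single-gene probe sets was 52.0%. They covered 62 of the 77 genes, where 59.1% of all named genes passed. A probe set above threshold on every array was found for 57 of the 77 genes, and for 4365 of all 8251 named genes. All 7 mitochondrial genes passed, as did 34 of 41 cytosolic and 13 of 16 ER genes, 2 of 3 transcription factors and 6 of 10 others. The 15 genes under threshold were Bag3, Cct6b, Dnajb3, Dnajb5, Dnajb8, Hspa1l, Hspb1, Calr, Pdia5, Ppic, Hsf2, Dnajc17, Hspb11, Ppie and Ppig.

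**Figure D1:**
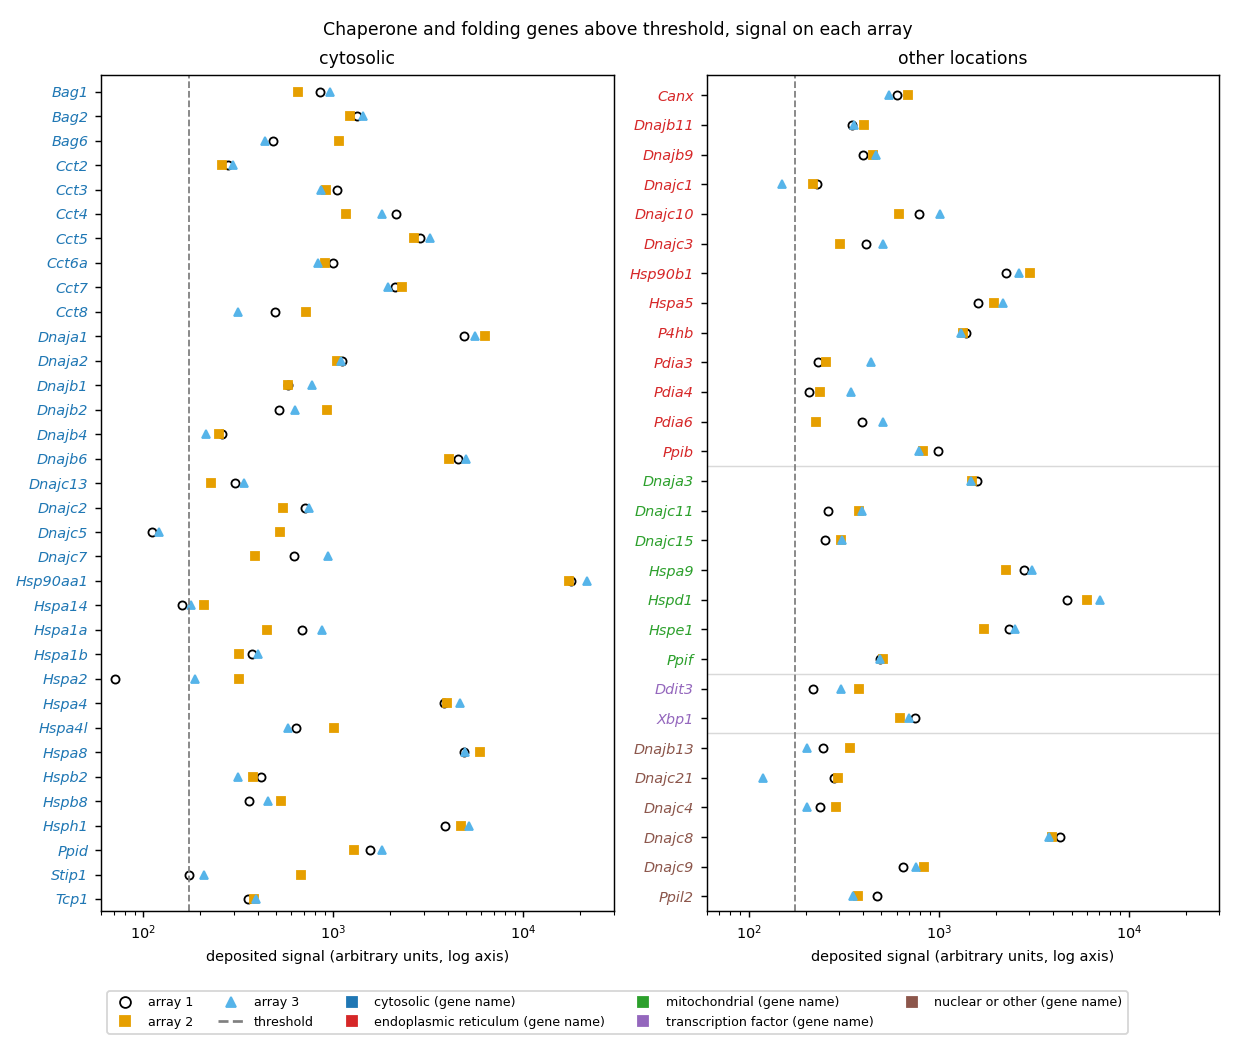
Deposited signal (arbitrary units, log axis) of the 62 chaperone and folding genes above threshold on each of the 3 arrays, each gene at its brightest probe set. The dashed line is the threshold of 175, name colours give the location, and most genes show 3 close symbols while Dnajc5, Hspa2 and Stip1 are spread widely.

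The constitutive cytosolic HSP70 gene Hspa8 and the cytosolic HSP90 gene Hsp90aa1 were well above threshold with little spread at their brightest probe sets. Hspa8, the housekeeping HSP70 that also uncoats clathrin vesicles, gave 4862, 5920.2 and 4949, and Hsp90aa1, a cytosolic HSP90, gave 17932, 17503 and 21673. Their highest arrays differed, and highest and lowest lay 1.21-fold and 1.28-fold apart. A second Hsp90aa1 probe set of the suffix class for incomplete probe groups was under threshold at 38.8 ± 24.9.

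The inducible HSP70 genes Hspa1a and Hspa1b were both above threshold on every array. Hspa1a gave 684, 446 and 871, and Hspa1b gave 374, 319 and 402, so array 3 was highest and array 2 lowest for both. The log2 range was 1.01 for Hspa1a and 0.38 for Hspa1b. They are near-identical neighbours on chromosome 17, so each probe set may also read the other transcript. Their promoters differed at 3 of 250 bases upstream, and both held the shorter heat shock element of 2 units, written GAANNTTC or TTCNNGAA and found in 17.0% of all genes with a window and in 15 of 66 members. The 150 bases before each start are shown because they differ at 1 base, with the 2-unit element in capitals.
Hspa1a (chr17:34972157-34972306, minus strand): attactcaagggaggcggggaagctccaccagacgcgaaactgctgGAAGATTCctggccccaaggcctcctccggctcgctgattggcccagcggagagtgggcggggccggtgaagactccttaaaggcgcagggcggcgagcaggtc
Hspa1b (chr17:34959239-34959388, minus strand): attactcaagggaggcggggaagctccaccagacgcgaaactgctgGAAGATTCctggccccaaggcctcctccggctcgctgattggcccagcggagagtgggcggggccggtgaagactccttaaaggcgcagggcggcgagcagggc
An exact copy of the 3-unit element was not among these letters, and copies with a mismatch were not searched for.

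At their brightest probe sets, other members of the HSP70 family above threshold were at moderate spread except Hspa2. Hspa14, a ribosome-associated HSP70, gave 160.0, 209 and 178, and the testis HSP70 Hspa1l was under threshold at 90.3 ± 64.3. Hspa2, known best from male germ cells, gave 71.3, 319 and 187, a 4.45-fold range that crosses the threshold. The HSP110 exchange factors Hsph1 and Hspa4 gave 3891, 4722 and 5194, and 3812, 3968 and 4671, both lowest on array 1 and highest on array 3. Their relative Hspa4l gave 636, 1006 and 582, highest on array 2. A dimmer Hspa4 probe set above threshold gave 199, 435 and 156, a 2.69-fold range, highest on array 2. Another, at 163, 187 and 229.7, kept the order of the brightest. Across the family in all compartments, 10 of 11 genes passed. Of these, 6 were highest on array 3, 4 on array 2 and 0 on array 1, where 28.8% of all named genes above threshold were highest.

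J-domain genes, the largest family here with 27 members, passed for 23. The cytosolic Dnaja1 gave 4875, 6278 and 5589, Dnaja2 gave 1114, 1051 and 1096, and the heat-inducible Dnajb1 gave 578, 578 and 775. Dnaja2 varied least of the cytosolic genes above threshold, with a 1.08-fold range, and Dnajb1 was set apart on array 3. Dnajb6, which suppresses aggregation of polyglutamine proteins, gave 4539, 4069 and 4992. Its other probe set read 345, 434 and 460.3, and both were highest on array 3. Dnajb2, the neuron-enriched member, gave 520.0, 924 and 627, and Dnajb4 gave 259.6, 249.7 and 213. Dnajc13, which acts on endosomes, gave 306, 226 and 341, highest on array 3 and lowest on array 2.

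Among J-domain probe sets above threshold the widest range belonged to Dnajc5, the cysteine string protein of synaptic vesicles, which protects the fusion protein SNAP25. It gave 111, 522 and 121, so it was above threshold on array 2 alone, a 4.67-fold range. Dnajc7, which binds both HSP70 and HSP90, gave 619, 389 and 936 and was lowest on array 2. The ribosome-associated Dnajc2 gave 714, 542 and 741 on 1 probe set and 797, 369 and 522 on another. Both were lowest on array 2, but their highest arrays differed.

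Stip1, the adaptor that hands clients from HSP70 to HSP90, was the member with the smallest variance-test p. It gave 175, 679 and 209.8, so array 2 stood 3.86-fold above array 1 while arrays 1 and 3 lay close. Without array 2 its log2 range was 0.31 in place of 1.95. Ppid, an HSP90-binding cyclophilin, gave 1570.1, 1284 and 1808, in the opposite order for array 2.

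BAG genes passed for 3 of 4. Bag1, an HSP70 exchange factor, gave 848, 651 and 959.5, and Bag2, an inhibitor of the ubiquitin ligase CHIP, gave 1329, 1223 and 1442. Array 3 was highest and array 2 lowest for both, and also for the second Bag2 probe set above threshold at 506, 486 and 509. The third gave 154, 31.3 and 112. Bag6, which guards tail-anchored and misplaced membrane proteins, gave 479.7, 1066 and 439 on its brightest probe set and 463, 782 and 429 on the next, both highest on array 2. Its other 2 probe sets gave 613, 554 and 490.2, highest on array 1, and 93.9, 129.7 and 104, under threshold. The stress-inducible Bag3 gave 153, 78.3 and 134, under threshold on every array, and a second probe set gave 86.1 ± 21.1.

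Of the small heat shock genes, 2 of 4 passed. Hspb8, the partner of Bag3 in selective autophagy, gave 360.0, 532 and 456, and the muscle-type Hspb2 gave 418, 379.7 and 315, in different orders. Hspb1, the inducible small heat shock protein of glia and stressed cells, gave 20.3, 13.2 and 65.9, under threshold throughout. The dimmer probe sets of Hspb2 and Hspb8 averaged 17.6 and 30.2.

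The TRiC ring, which folds actin and tubulin, was among the steadier groups at the brightest probe set of each gene. Tcp1 and 7 of the 8 other subunit genes passed, and the median SD of log2 signal over the 8 was 0.125, while it was 0.247 over all named genes above threshold. Signal levels were not matched in this comparison. Dimmer Cct3 and Cct5 probe sets above threshold had SDs of 0.379 and 0.359, and a further Cct3 probe set had 0.009. Tcp1 gave 354, 384 and 393, Cct2 gave 280.4, 259 and 297, and Cct7 gave 2124, 2311 and 1934. These 3 subunits did not share a highest array. Cct5 gave 2875, 2674 and 3211, Cct6a gave 1002, 908 and 832, and Cct3 gave 1042, 913 and 858. Cct4 and Cct8 were the exceptions in spread. Cct4 gave 2145, 1165 and 1799.5, lowest on array 2, and Cct8 gave 492, 722 and 317, highest on array 2. The log2 shift on array 2 against the mean of the other arrays was -0.78 for Cct4 and 0.84 for Cct8. Cct6b, the testis form, was under threshold at 69.9 ± 68.1, as were a second probe set of Tcp1 at 14.4 ± 9.44 and of Cct6a at 33.8 ± 16.3.

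The ER chaperones Hspa5, Hsp90b1 and Canx were above threshold on every array, and Calr was under it. Hspa5, the ER HSP70 known as BiP, gave 1615, 1948 and 2186, and Hsp90b1, the ER HSP90, gave 2253, 3008 and 2642. Both were lowest on array 1, though their highest arrays differed, and their ranges were 1.40-fold and 1.33-fold. The lectin chaperone Canx, which retains glycoproteins until they fold, read 606, 685 and 545 on the brighter probe set and 298, 210.5 and 244, in another order, on the dimmer. The soluble lectin Calr gave 79.7, 35.9 and 6.9, under threshold on every array, from 1 probe set.

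Among the disulfide isomerases 4 of 5 passed. P4hb, the classic isomerase, gave 1396, 1350.1 and 1304, the smallest range of the ER genes above threshold at 1.04-fold. That range rests on a probe set of suffix type r. A second probe set, of plain suffix, gave 207, 139 and 134, with a mean under threshold. Pdia3, which works with the lectin chaperones on glycoproteins, gave 232, 254 and 442, and Pdia4 gave 208, 238 and 344. These 2 genes were alike in that array 3 stood above 2 closer arrays, by 1.96-fold and 1.70-fold over array 1 after rescaling. Pdia6 gave 396, 227 and 507 on its brightest probe set. Its other 2 gave 197, 469.8 and 199.9, and 146, 436 and 186, with array 2 highest where the brightest had it lowest. Pdia5 was under threshold at 39.0 ± 10.4.

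The ER J-domain genes, which recruit BiP to its clients, all had a probe set above threshold. Dnajb11 and Dnajb9 gave 350.3, 405 and 357, and 399, 452 and 467, and were, after P4hb, the steadiest ER genes above threshold. Dnajc10, a disulfide reductase for degradation, gave 786, 621 and 1019. Dnajc3, which also restrains the stress kinase PERK, gave 415, 304 and 510.2, so array 3 was highest and array 2 lowest for this gene and Dnajc10. The other Dnajc3 probe sets above threshold went other ways, at 409, 325 and 276, and 234, 259 and 159, and 1 more was under threshold at 38.4 ± 26.7. Dnajc1 gave 228, 218 and 150.3. Second probe sets of Dnajb9 and Dnajc1 were under threshold at 162 ± 12.8 and 23.4 ± 16.2. Of the ER cyclophilins, Ppib, which acts on procollagen, gave 986, 826 and 783, and Ppic was under threshold at 60.2 ± 1.76.

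In the mitochondrial group all 7 genes were above threshold on every array. Hspd1, the HSP60 chaperonin, gave 4726, 6017 and 7078, and its lid Hspe1 gave 2338, 1728 and 2534. Both were highest on array 3, but array 1 was lowest for Hspd1 and array 2 for Hspe1, although their starts share a promoter. The second Hspd1 probe set gave 268, 135 and 203, highest on array 1. Hspa9, the mitochondrial HSP70 that pulls proteins through the import channel, gave 2803, 2261 and 3090.3, in the order of Hspe1.

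Of the other mitochondrial members, Ppif, Dnaja3 and Dnajc15 varied least of the group and Dnajc11 most at the brightest probe set of each gene. Ppif, the cyclophilin of the permeability transition pore, gave 494, 509 and 489.8, a 1.03-fold range. Dnaja3, a partner of Hspa9, gave 1589, 1494 and 1478, and Dnajc15, which is tied to the import motor, gave 252, 306 and 309.9. Dnajc11, linked to the cristae-organising complex, gave 263, 382 and 395, lower on array 1 than on the 2 others.

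Of the stress transcription factors, Xbp1 and Ddit3 passed and Hsf2 did not. Xbp1, activated by splicing in ER stress, gave 749, 624 and 699.6, which as a signal for the gene does not separate spliced from unspliced RNA where both hold the probed part. Ddit3, which encodes the pro-apoptotic factor CHOP, gave 219, 382 and 306, lowest on array 1, whereas Xbp1 was lowest on array 2. Hsf2 gave 119, 16.6 and 90.7.

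The nuclear and other members included splicing-associated Dnajc8 at 4338, 3937 and 3789.5, with a second probe set at 764, 1289 and 995. The histone chaperone Dnajc9 gave 646, 838 and 762, and Dnajc4 gave 239, 289.7 and 202. The ciliary Dnajb13 gave 246, 343 and 202, with a second probe set at 90.3 ± 42.1. Of these 4 genes, all but Dnajc8 were highest on array 2. Dnajc21, involved in ribosome assembly, gave 282, 294 and 119.6, low on array 3. Ppil2, a nuclear cyclophilin, gave 471, 377 and 353, a second probe set 208, 431 and 125, and the third was under threshold at 10.2 ± 2.92.

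Whether a member varied between arrays more than other probe sets at its level was tested with limma over all 6218 probe sets above threshold. Of the 80 member probe sets 0 passed at an adjusted p of 0.05, where 0.0161% of all tested passed. In simulated data the test called 9% of probe sets shifted by 2 log2 units on 1 array. A count of 0 therefore does not show that members varied no more than other probe sets. At an unadjusted p under 0.05, 4 of the 80 passed, for Stip1, Dnajc5, Bag6 and Dnajc7, and 5.21% of all tested did. Their unadjusted p-values in limma were 0.0106, 0.0263, 0.0293 and 0.0350, and adjusted over all probe sets 0.733, 0.890, 0.899 and 0.899. The threshold applied to the mean, so a probe set low on most arrays could enter through a single high array. Dnajc5 entered in this way through array 2, so its p-value is not separate from the filter. Leaving out array 3, Stip1 passed with a limma adjusted p of 0.034, the lone member to do so, in a setting in which 44 of 6245 probe sets passed.

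**Figure D2:**
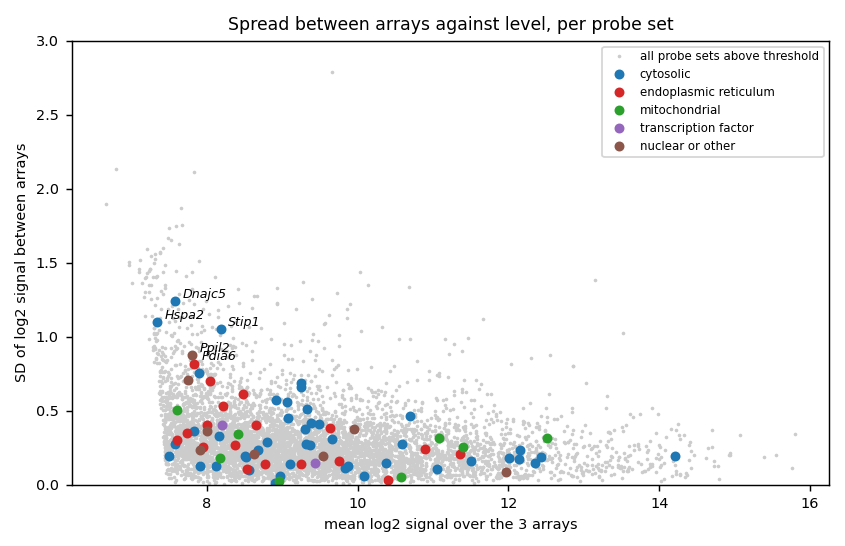
SD of log2 signal between the 3 arrays (y axis) against mean log2 signal (x axis) for all 6218 probe sets above threshold (grey) and the 80 member probe sets (coloured by location). Members with an SD above 0.8 are named, and they lie among other probe sets of similar level.

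Wide ranges in this family mostly involved array 2, as they did on the whole array. A log2 range over 1, meaning more than 2-fold between highest and lowest array, was seen in 14 of the 80 member probe sets, and in 12.1% of all probe sets above threshold. They belonged to Bag6, Cct8, Dnajc2, Dnajc5, Dnajc7, Hspa1a, Hspa2, Hspa4, Stip1, Pdia6 with 3 probe sets, Dnajc21 and Ppil2. Those of Dnajc5, Hspa2, Hspa4, Dnajc21 and Ppil2, with a Pdia6 probe set, were not above threshold on every array. Such probe sets entered through their mean, among members and all probe sets alike. Array 2 was the highest in 10 and the lowest in 4 of the 14, so it was an extreme in each. Each probe set has 2 extremes among 3 arrays, and array 1 was an extreme in 6 and array 3 in 8 of the 14. Of all 755 probe sets with such a range, array 2 was an extreme in 81.9%, array 1 in 52.8% and array 3 in 65.3%. Leaving out array 2 took the 755 to 213, so the pattern was not confined to the members. Without array 2 the member count was 1 of 75, against 3.46% of all probe sets above threshold. It was 12 of 79 without array 1, against 7.81% of all, and 9 of 80 without array 3, against 6.65% of all. With all arrays, without array 1 and without array 3 the member share was the larger, a difference that was not tested. Array 2 is also the one with a Gapdh 3' to 5' ratio of 1.21 against 3.99 and 3.94, and the highest Ttr signal. The part of either in these ranges was not tested. Hspa1a was at the edge, with a log2 range of 0.97 on the deposited values without rescaling.

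Taken gene by gene, 29 of 62 members were highest on array 3, or 46.8%, where 38.6% of all named genes above threshold were. On array 2 there were 21, or 33.9%, against 32.6% of all, and on array 1 there were 12, or 19.4%, against 28.8%. The excess on array 3 was small in the main setting and not stable over the alternatives. It was larger with other scalings. Shares on array 3 were 45.2% of members against 33.4% of all without rescaling. Quantile normalization gave 46.8% against 35.1%, and cyclic loess gave 45.2% against 32.9%. Comparing array 3 with array 1 alone, 39 of 59 members or 66.1% were higher on array 3, against 55.7% of all. With array 2 alone it was 33 of 62 or 53.2%, against 56.3% of all. Averaging over the probe sets of each gene it was 24 of 62, or 38.7%, against 37.7%.

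**Figure D3:**
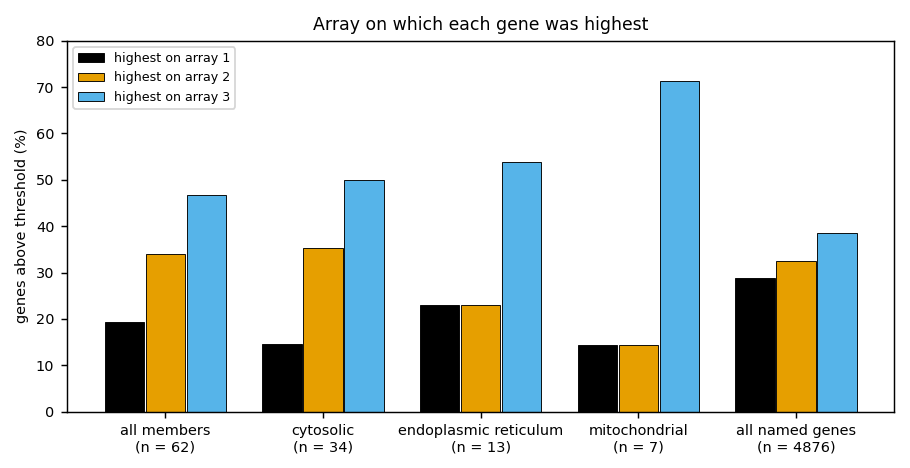
Share of genes above threshold (%, y axis from 0) that were highest on array 1, 2 or 3, for all members, the 3 locations, and all named genes. Array 3 leads in each group, with 46.8% of members and 38.6% of all named genes.

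By location, the shift of each gene on an array was taken as its log2 signal there minus the mean of the others. On array 3 the median shift was 0.34 for the 7 mitochondrial genes, 0.18 for the 13 ER genes and 0.16 for the 34 cytosolic genes, against 0.06 for all named genes above threshold. On array 2 the medians were 0.02, -0.03 and -0.06, against -0.06, and on array 1 they were -0.04, -0.04 and -0.02, against 0.00. A positive shift on array 3 was seen in 6 of 7 mitochondrial, 8 of 13 ER and 22 of 34 cytosolic genes, where 56.5% of all named genes had one. Over all 62 members a positive shift was seen in 26, or 41.9%, on array 1 against 50.4% of all, and in 31 of 62 on array 2 against 44.5% of all. The ER median was -0.03 with the probe sets of each gene averaged, and also with the threshold at the 75th percentile. The mitochondrial median on array 3 was 0.10 without array 1 and 0.19 without array 2. Median SDs of log2 signal were 0.253 for the mitochondrial, 0.241 for the ER and 0.214 for the cytosolic genes, near the 0.247 of all named genes.

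**Figure D4:**
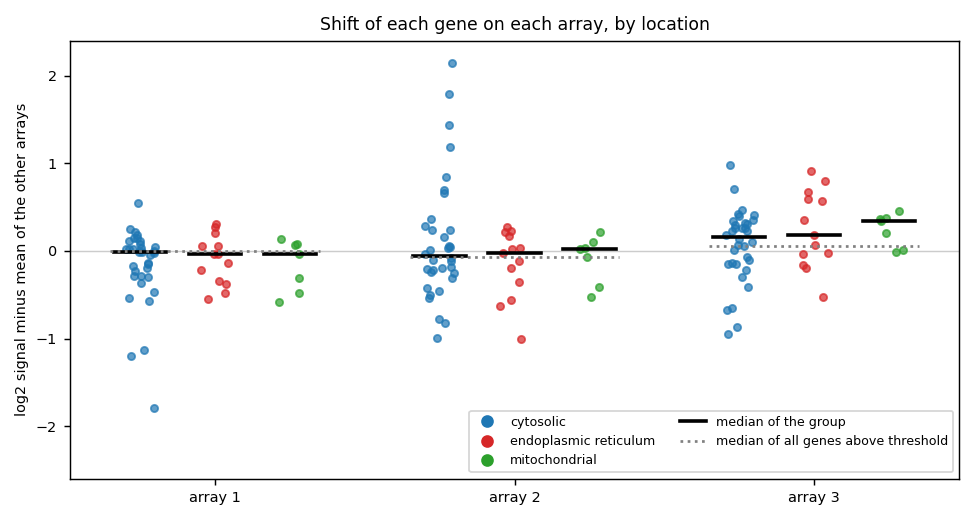
Shift of each gene on each array (log2 signal there less the mean over the others, y axis) for cytosolic, ER and mitochondrial members, 1 point per gene. Black bars are group medians and dotted lines the median of all genes above threshold. On array 3 the mitochondrial median is 0.34, and the widest scatter is of cytosolic genes on array 2.

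Few members above threshold held a promoter element, and a difference between the elements in highest array was not tested. With the 3-unit heat shock element, Hspd1, Hspe1, Dnajb6 and Hsph1 were each highest on array 3 at their brightest probe set. On array 3 46.8% of members and 38.6% of all named genes were highest, and the lowest arrays of these genes were 1 or 2. Hspd1 and Hspe1 share the bases that hold the element, so they are not separate cases. The highest arrays were looked at after the values were known, and the second Hspd1 probe set was highest on array 1. Of the 5 genes above threshold with the ER stress element, Hspa5, Pdia6 and Dnajc3 were highest on array 3 and Hsp90b1 and Canx on array 2. Calr, the sixth, was under threshold.

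Probe sets of the same gene often differed in their array order. Of 13 member genes with more than 1 probe set above threshold, 2, Bag2 and Dnajb6, had the same highest array in all of them, or 15.4%, against 34.4% of the 675 such genes on the array. Besides Pdia6, Bag6, Hspd1, Dnajc2, Dnajc3, Dnajc8, Canx and Ppil2, the others were Cct3, Cct5 and Hspa4. The remaining Cct3 probe sets gave 662, 812 and 466, and 480.1, 482 and 471, which differ little. The second Cct5 probe set gave 299, 183 and 216, highest on array 1. Hspa4 gave 199, 435 and 156, and 163, 187 and 229.7, on its further probe sets above threshold, and 124 ± 36.2 and 58.9 ± 17.1 on those under it.

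**Figure D5:**
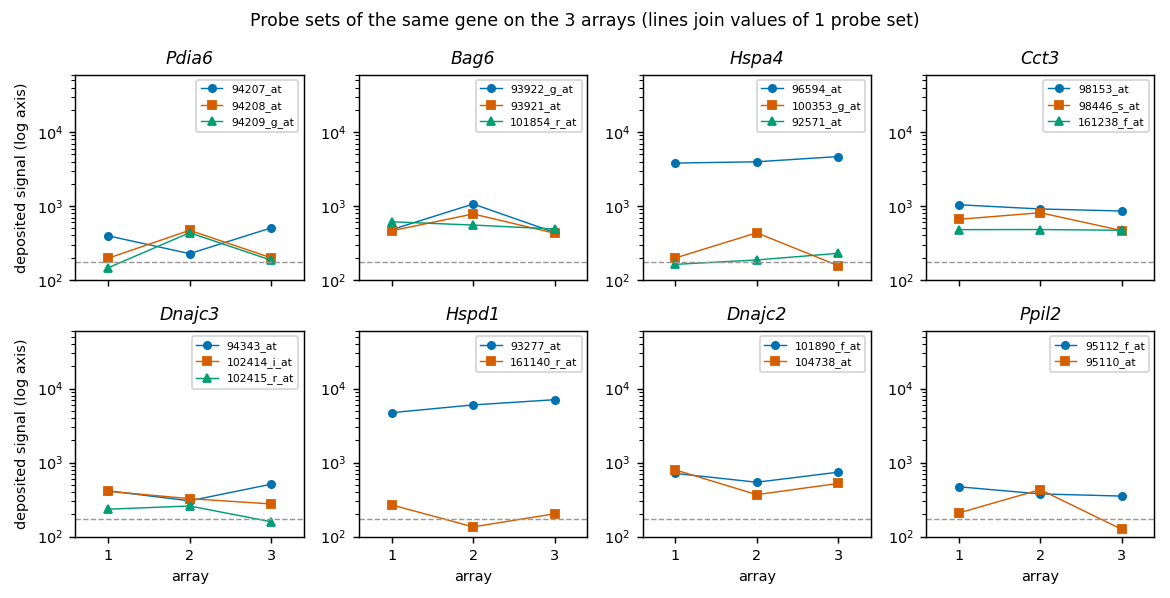
Deposited signal (log axis) on arrays 1, 2 and 3 for the probe sets above threshold of 8 member genes, with lines joining the values of a probe set and the threshold dashed. In Pdia6 the brightest probe set is lowest on array 2, where the other 2 are highest, and in Hspd1 the brighter is highest on array 3 while the dimmer is highest on array 1.

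Other genes of the same pathways were taken from 3 lists. Of 24 ER quality control genes with a probe set 17 passed, including the stress sensor Atf6 at 257 ± 16.1, the stress factor Atf4 at 2020.4 ± 418, the ubiquitin-like Herpud1 at 579.6 ± 62.2 and the degradation adaptor Sel1l at 327, 673 and 440.5. The BiP exchange factor Hyou1 and the stress kinase Eif2ak3 were under threshold at 6.4 ± 4.91 and 121 ± 15.9. Of 20 cytosolic co-factor genes 18 passed, among them the HSP90 kinase adaptor Cdc37 at 885, 1426 and 785, and the immunophilins Fkbp4 at 2449 ± 289, Fkbp5 at 1064 ± 154 and Fkbp1a at 17405 ± 2517. Of 16 mitochondrial quality control genes 13 passed, including the exchange factors Grpel1 at 328 ± 83.1 and Grpel2 at 256 ± 72.6, the protease Lonp1 at 465, 306 and 193 and the protease subunit Clpp at 1312 ± 46.4. Highest on array 3 were 5 of the 17 ER quality control genes, or 29.4%, 7 of the 18 cytosolic co-factors, or 38.9%, and 1 of the 13 mitochondrial quality control genes, or 7.69%, against 38.6% of all named genes. Among members the counts were 7 of 13 ER, 17 of 34 cytosolic and 5 of 7 mitochondrial genes. Array 2 was highest for 11 of the 17 ER quality control genes, or 64.7%, against 32.6% of all named genes. The differences between these lists and the members were not tested. In each of the 3 lists 0 probe sets passed the limma variance test, and 1, 1 and 0 genes had an unadjusted p under 0.05.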

How the data were processed

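Total RNA of CA1 was measured on 3 arrays of 12488 probe sets with names of the Affymetrix type. The deposited values are linear signal intensities, 1 for each probe set of an array. Which program, background correction and scaling made them is not given in the sources used here. All 3 trimmed means (2% left out at each end) equalled 499.9. Of the columns, 0 belonged to other samples. Probe sets were named through the platform annotation, with symbols updated to the GRCm38.p6 gene table; 66 controls, 396 probe sets with several genes and 1193 unnamed were not used for genes. Between 6 and 18 probe sets had identical values in any pair of arrays.

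Arrays were rescaled to a common median over probe sets above threshold (factors 0.991, 0.987 and 1.02), floored at 47.5, the 25th percentile, and log2-transformed. A gene was represented by its brightest probe set. Probe sets of the suffix types f, r, s, i and g can share probes with other sequences. The variance test used limma 3.58.1 in R 4.3.3 (fitFDistRobustly with an intensity trend, tails winsorised at 0.05 and 0.1, Benjamini-Hochberg adjustment over 6218 probe sets). The script was tested on simulated data with probe sets shifted on 1 array. The limma variance test called 0 of 200 shifted by 1 log2 unit, 18 of 200 shifted by 2 and 152 of 200 shifted by 3.

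Members, locations and lists were chosen with earlier results of these data known. Values are given for the main genes of each family, genes with several probe sets, those with a log2 range over 1 or an unadjusted p under 0.05, the 3 steadiest per location, and the first 4 measured genes of each other list; further genes, such as Hspa14, Hyou1 and Eif2ak3, were named after their values were seen.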

Additional observations from a re-analysis of the deposited data

How the results depend on the processing

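Alternatives changed the scaling (none, quantile, cyclic loess), the floor (10th or 40th percentile), the threshold (25th or 75th percentile, or none), the probe sets (plain suffix, or averaged by gene) and the variance prior (not robust), or left out an array. The count of member genes highest on array 3 was added after seeing the data. No paired analysis was possible because there is 1 group.

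Member probe sets above threshold numbered 37 at the 75th percentile and 75 to 80 when an array was left out. Member probe sets past the limma variance test were 0 in 11 of 13 alternatives, in a range of 0 to 1 when an array was left out, and 10 with no threshold, where 1375 of 12422 probe sets passed and all 10 were probe sets under the threshold of 175. Probe sets with a log2 range over 1 numbered 23 of 97 at the 25th percentile threshold, where 25.2% of all probe sets had one, 2 of 37 at the 75th, against 6.59%, 22 of 112 with no threshold, against 19.7%, and 1 to 12 when an array was left out. Genes highest on array 3 numbered 17 of 35 at the 75th percentile, or 48.6% against 36.4% of all, and 33 to 39 without array 1 or 2. Over the alternatives, the median shift on array 3 ran from 0.10 to 0.36 for mitochondrial, from -0.03 to 0.28 for ER and from 0.10 to 0.19 for cytosolic genes. The other medians moved by less than the spread between arrays, with changes of sign. The number of arrays limits every value.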
